A study of Arabidopsis thaliana with 12 samples.

Results

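The response of sr34a-1 germinated seeds of Arabidopsis thaliana to abscisic acid (ABA) was measured in 6 of the 12 RNA libraries of the study, namely the 3 sr34a-1 libraries with ABA and the 3 sr34a-1 mock libraries. The libraries were assigned by the genotype and treatment in their titles. sr34a-1 is a mutant of SR34A (AT3G49430), which encodes a serine/arginine-rich (SR) splicing factor, and the reference genotype was the wild type (WT) accession Col-0. Stratified seeds of both genotypes had been grown on MS medium under continuous white light for 44 h and then moved for 2 h to MS medium alone, called mock here, or to MS medium with 0.5 µM ABA. Polyadenylated RNA came from whole seedlings, so each value is a mixture of embryo tissues and any seed coat or endosperm still attached. The study asked how SR34A affects gene expression and splicing during seedling establishment and ABA responses. The sr34a-1 line is a single allele, and the titles call the replicates biological without saying which seed batches they came from.

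ABA is the hormone that keeps seeds dormant and stops the growth of freshly germinated embryos when water is short. It is bound by receptors of the PYR/PYL family, which then inhibit protein phosphatases of clade A (PP2C). These phosphatases otherwise hold SnRK2 kinases inactive, and the freed kinases phosphorylate basic leucine zipper (bZIP) factors such as ABI5 and the ABFs, which bind ABA-responsive elements (ABRE) with the core ACGTG in promoters. Known targets include genes for late embryogenesis abundant (LEA) proteins, which protect cells during drying.

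The 6 sr34a-1 libraries held 69112037 to 79779658 gene counts each, and the 10 most counted genes took 4.66% to 5.11% of them. Pairs of replicates varied beyond sampling error, the chi-square over its degrees of freedom being 4.26 to 19.6. The mutated gene itself kept a low level under both treatments: SR34A had 13.8, 12.4 and 13.4 CPM (counts scaled to a common library total) in the mock libraries and 11.96, 12.01 and 14.2 CPM with ABA, against means of 96.2 and 93.3 CPM in WT. The root hair markers (8 of 8) and the green cotyledon markers (7 of 7) were all measured, with summed levels of 533 to 590 CPM and 5705 to 6808 CPM over the 6 libraries, and RHD6 (higher by 0.43), CAB3 and LHCB3 were the members that changed.

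ABA changed a large part of the transcriptome of sr34a-1 within the 2 h. Of 21256 genes tested, 8514 (40.1%) changed with ABA, 19.4% higher and 20.7% lower, at an adjusted p under 0.05 (edgeR's quasi-likelihood test, Benjamini-Hochberg adjustment over all genes), and these shares are the background for every count below. Changes of at least 1 on the log2 scale (2-fold) were seen in 850 genes upward (4.0%) and 712 genes downward (3.35%), 7.35% together. The CPM of the 3 ABA libraries lay wholly above those of the mock libraries for 24.2% of all genes and wholly below for 26.4% (50.6% in all), which is the background for statements that groups did not overlap. The median log2 fold change of all genes tested was -0.02. Lists of genes described below are given as the number of members that were higher or lower of those tested, with the median log2 fold change of the members. As the samples are bulk RNA, fewer cells of a type and less RNA per cell cannot be told apart.

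The steepest increases were in genes that were almost silent in mock seedlings. COR15A, which encodes a cold-regulated protein of the chloroplast, had 0, 0.0625 and 0.107 CPM in the mock libraries and 13.8, 16.9 and 17.97 CPM with ABA. Its log2 fold change was 8.11 (SE 0.34, adjusted p 1.08e-10, edgeR). That was the largest among genes with a mean log2 CPM of at least 1 that passed without overlap of the groups. The neighbour and near-copy of COR15A, COR15B, changed by 5.74. HAI1, a clade A phosphatase gene, had 0.368, 0.212 and 0.429 CPM in mock and 23.96, 25.9 and 24.1 CPM with ABA, a log2 fold change of 6.20 (SE 0.17, adjusted p 1.86e-12). For both genes every ABA library lay far above every mock library, and separate groups were a condition of the naming rule. RD29A, a classical dehydration marker, was already expressed in mock, at 24.8, 34.0 and 36.3 CPM, and reached 1614, 1570 and 1784 CPM with ABA, 52.2 times the mock mean. The other genes among the 10 largest increases were the protein kinase gene AT5G24080, the laccase gene LAC12, the LEA-like AT1G52680, AT2G37870, AT5G05220, the transporter gene ABCG16 and the caleosin gene PXG3, with log2 fold changes of 5.44 (PXG3) to 7.30 (AT5G24080). AT5G24080 overlaps another annotated gene, AT5G03685, and as the counting is not stated to use strand their reads cannot be told apart.

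The 10 largest decreases were smaller in size than the largest increases. AT2G43860, annotated as pectin lyase-like, fell by 3.98 on the log2 scale (SE 0.27, adjusted p 2.02e-08), from 4.38, 4.09 and 4.62 CPM in mock to 0.398, 0.189 and 0.249 CPM with ABA. PYL6, an ABA receptor gene, fell by 3.67 (SE 0.21, adjusted p 3.72e-09), from 33.4, 32.8 and 36.9 CPM to 4.38, 1.96 and 1.88 CPM. The cellulase gene CEL5 fell by 3.60, from a mean of 15.2 CPM to 1.25 CPM. That the groups did not overlap was a condition for naming these 10 genes. The other 7 were AT5G40590, the basic helix-loop-helix factor BHLH129, the receptor kinase CRK30, AT5G48430, AT1G14960, TBL45 and AT2G41990, annotated as a LEA protein, with log2 fold changes of -3.43 (AT5G40590) to -3.13 (TBL45 and AT2G41990).

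On the length-scaled cRPKM scale, which can be compared between genes, the 8 highest genes that rose by at least 1 were the LEA genes LEA7, LEA4-5 and LEA18, the loci AT3G02480, AT3G15670 and AT3G17520, the membrane protein gene COR413PM1 and the arginine decarboxylase gene SPE2, which makes a precursor of polyamines. AT3G02480 rose from 494 to 1545 cRPKM, COR413PM1 from 106 to 1226 cRPKM, LEA7 from 100 to 1027 cRPKM and SPE2 from 520 to 1107 cRPKM (means of 3 libraries). In CPM, COR413PM1 had 84.4, 93.3 and 88.6 in mock and 1083, 1043 and 1030 with ABA, so the 3 libraries of each group lay close together. The 8 highest genes that fell by at least 1 included RBCS-1B, a small subunit of Rubisco, from 483 to 206 cRPKM, the pectin methylesterase gene PME18, from 218 to 104 cRPKM, and the beta-xylosidase gene BXL2, from 181 to 55 cRPKM. BXL2 had 464, 445 and 442 CPM in mock and 140, 134 and 148 CPM with ABA (log2 fold change -1.68, SE 0.06, adjusted p 8.19e-12). The others were HOL1, AT1G29090, the cysteine protease RD21B, AT2G45180 and MIOX2, with log2 fold changes of -1.50 (AT2G45180) to -1.002 (RD21B).

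The ABRE core was more frequent before the starts of genes that rose with ABA than before those of other genes. The letters ACGTG were searched on both strands in the 250 bases before the RefSeq start of each gene (build TAIR10.1), overlapping matches counted as 1, and 24.2% of 21152 genes tested held at least 1. The share was 49.1% of the 850 genes that rose by at least 1 on the log2 scale and 60.1% of the 143 that rose by at least 3. It was 29.5% of the genes that rose by less than 1, 21.7% of the genes that did not pass, and 23.5% of the 711 genes with a window that fell by at least 1. A pair or more of separate matches was held by 5.69% of all genes and by 34.3% of those that rose by at least 3. The longer form ACGTGTC was held by 4.37% of all genes and 29.4% of those that rose by at least 3, and the palindrome CACGTG by 7.49% and 37.8%. Both of these contain ACGTG, so their matches overlap those of the core. CCGAC, the core of the dehydration-responsive element, was held by 12.9% of all genes, 25.2% of those that rose by at least 3 and 6.89% of those that fell by at least 1. Another motif, AAACCCTA, is known as the telo box of growth genes and so gives no neutral baseline. It was held by 3.6% of all genes and 3.09% of those that fell by at least 1. Of genes that rose by at least 1 and by at least 3, 1.65% and 2.8% held it. These shares describe letters in a window and were not tested, and the sets of genes were defined by the response.

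**Figure D1:**
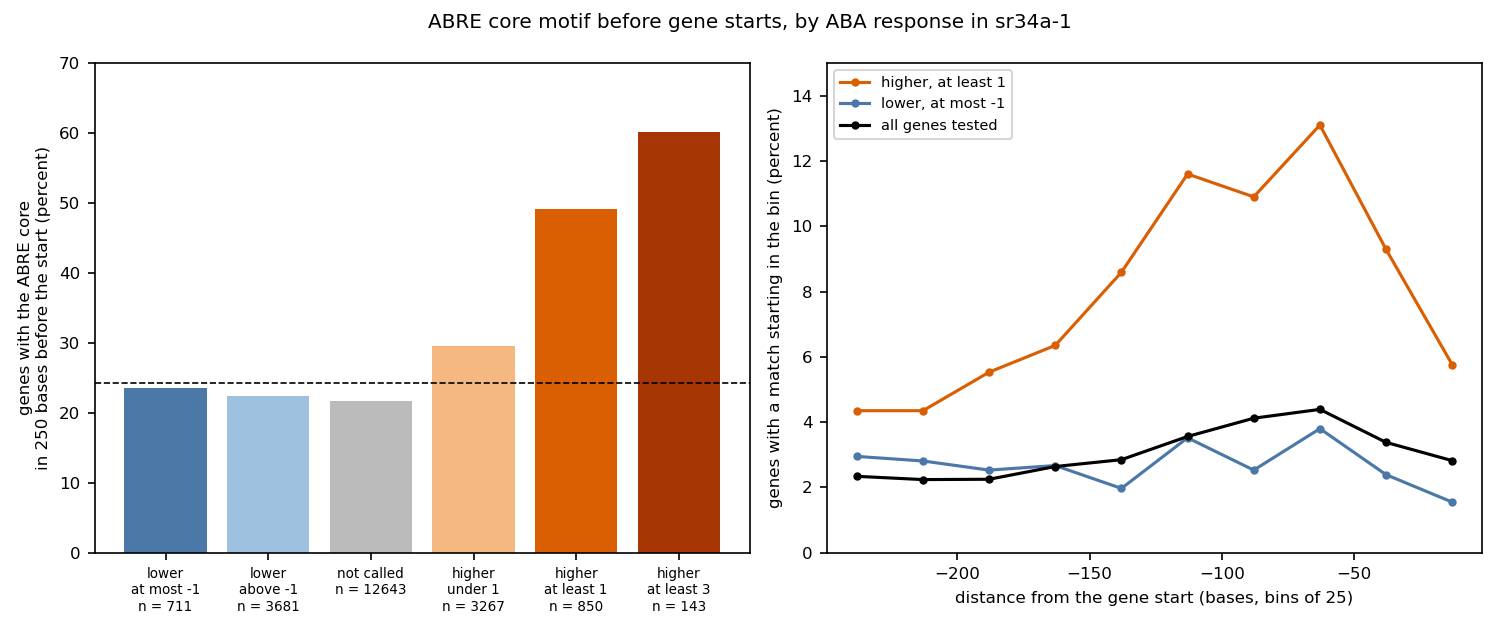
Left, percent of genes with the ABRE core in the 250 bases before the gene start, by response to ABA in sr34a-1, with the dashed line at the share of all genes tested (24.2%). Right, percent of genes with a match starting in each bin of 25 bases. For genes that rose by at least 1 the share peaked at 13.1% between 75 and 51 bases before the start, where all genes had 4.39%.

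The windows of 4 strongly induced genes are printed to show how the core is placed, with a strongly repressed gene beside them. The 4 were chosen after the values were seen, as the named genes with the largest increases among those with at least 2 separate matches, and PYL6 was chosen as the receptor with the largest decrease. Each runs 5′ to 3′ on the strand of the gene and ends at the base before its start, with the core and its reverse complement in capitals (RefSeq, TAIR10.1). MYB41 is the window chr4:13969526-13969775 on the minus strand, AT5G05220 is chr5:1550001-1550250 on the plus strand, PXG3 is chr2:14146556-14146805 on the minus strand, AFP1 is chr1:26038655-26038904 on the plus strand and PYL6 is chr2:16846195-16846444 on the minus strand.
MYB41: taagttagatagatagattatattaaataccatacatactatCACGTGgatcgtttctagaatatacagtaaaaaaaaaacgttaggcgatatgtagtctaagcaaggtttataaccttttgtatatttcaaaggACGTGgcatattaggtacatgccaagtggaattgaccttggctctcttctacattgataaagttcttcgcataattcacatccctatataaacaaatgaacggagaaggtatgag
AT5G05220: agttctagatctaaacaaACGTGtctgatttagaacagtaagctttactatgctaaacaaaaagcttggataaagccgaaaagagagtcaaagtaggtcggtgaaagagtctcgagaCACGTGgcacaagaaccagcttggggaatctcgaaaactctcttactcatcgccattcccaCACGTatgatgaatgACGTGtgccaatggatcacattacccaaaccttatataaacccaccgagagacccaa
PXG3: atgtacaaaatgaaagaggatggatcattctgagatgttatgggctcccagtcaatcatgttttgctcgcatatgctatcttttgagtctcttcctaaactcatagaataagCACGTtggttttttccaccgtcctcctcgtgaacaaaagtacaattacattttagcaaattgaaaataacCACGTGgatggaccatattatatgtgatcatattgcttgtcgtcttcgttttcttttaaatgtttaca
AFP1: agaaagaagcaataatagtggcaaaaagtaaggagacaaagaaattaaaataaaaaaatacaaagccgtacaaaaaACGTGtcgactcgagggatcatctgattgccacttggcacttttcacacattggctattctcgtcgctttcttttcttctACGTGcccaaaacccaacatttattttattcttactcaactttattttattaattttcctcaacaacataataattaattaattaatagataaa
PYL6: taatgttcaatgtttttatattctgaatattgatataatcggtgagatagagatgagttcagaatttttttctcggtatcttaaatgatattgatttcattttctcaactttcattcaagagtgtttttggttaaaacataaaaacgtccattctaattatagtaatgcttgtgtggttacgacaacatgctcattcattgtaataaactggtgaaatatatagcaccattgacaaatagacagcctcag
The matches start 208 and 115 bases before the start in MYB41, 138 and 68 bases before it in PXG3, and 174 and 94 bases before it in AFP1. AT5G05220 holds 4, at 232, 133, 72 and 57 bases. The PYL6 window holds 0, and those of RD29A and HAI1 hold 0 as well, which says only that the letters are not in this window.

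Receptor genes, whose proteins bind the hormone, changed in both directions. Of 14 receptor genes 13 passed the filter on low counts, and 6 were lower, 3 were higher and 4 did not pass the test (median log2 fold change -0.56). PYL4 had 190, 174 and 172 CPM in mock and 47.9, 39.5 and 36.5 CPM with ABA, a log2 fold change of -2.11 (SE 0.11, adjusted p 7.83e-10), and PYL5 fell from a mean of 43.8 to 13.96 CPM. PYR1, PYL1 and PYL8 also fell, by 1.08, 0.78 and 0.64 on the log2 scale. Together the receptor genes summed to 466 to 489 CPM in mock and 183 to 208 CPM with ABA. In the other direction, PYL7 had 2.698, 3.45 and 2.65 CPM in mock and 7.02, 8.61 and 7.86 CPM with ABA (log2 fold change 1.42, SE 0.15, adjusted p 3.58e-06), although it overlaps 2 other annotated genes. PYL13 rose by 2.42 at under 1 CPM and PYL9 by 0.28, and PYL9 no longer passed when any 1 of 4 libraries was left out. PYL2, PYL3, PYL11 and PYL12 did not pass, and PYL10 was not tested.

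The phosphatases that the receptors inhibit all rose, 9 of 9, with a median log2 fold change of 2.71. ABI2 had 5.42, 5.02 and 4.92 CPM in mock and 41.4, 44.7 and 48.4 CPM with ABA, a log2 fold change of 3.13 (SE 0.08, adjusted p 7.4e-13). AHG1, a phosphatase known for acting in seeds, had 4.61, 5.26 and 4.80 CPM in mock and 47.6, 41.0 and 51.1 CPM with ABA, and HAI3 rose by 3.02. The remaining members ABI1, HAB1, HAB2, PP2CA and HAI2 rose by 0.93 (HAB2) to 2.71 (PP2CA). The summed level went from 197 to 216 CPM in mock to 770 to 812 CPM with ABA. The groups of summed levels did not overlap for either the receptors or the phosphatases.

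**Figure D2:**
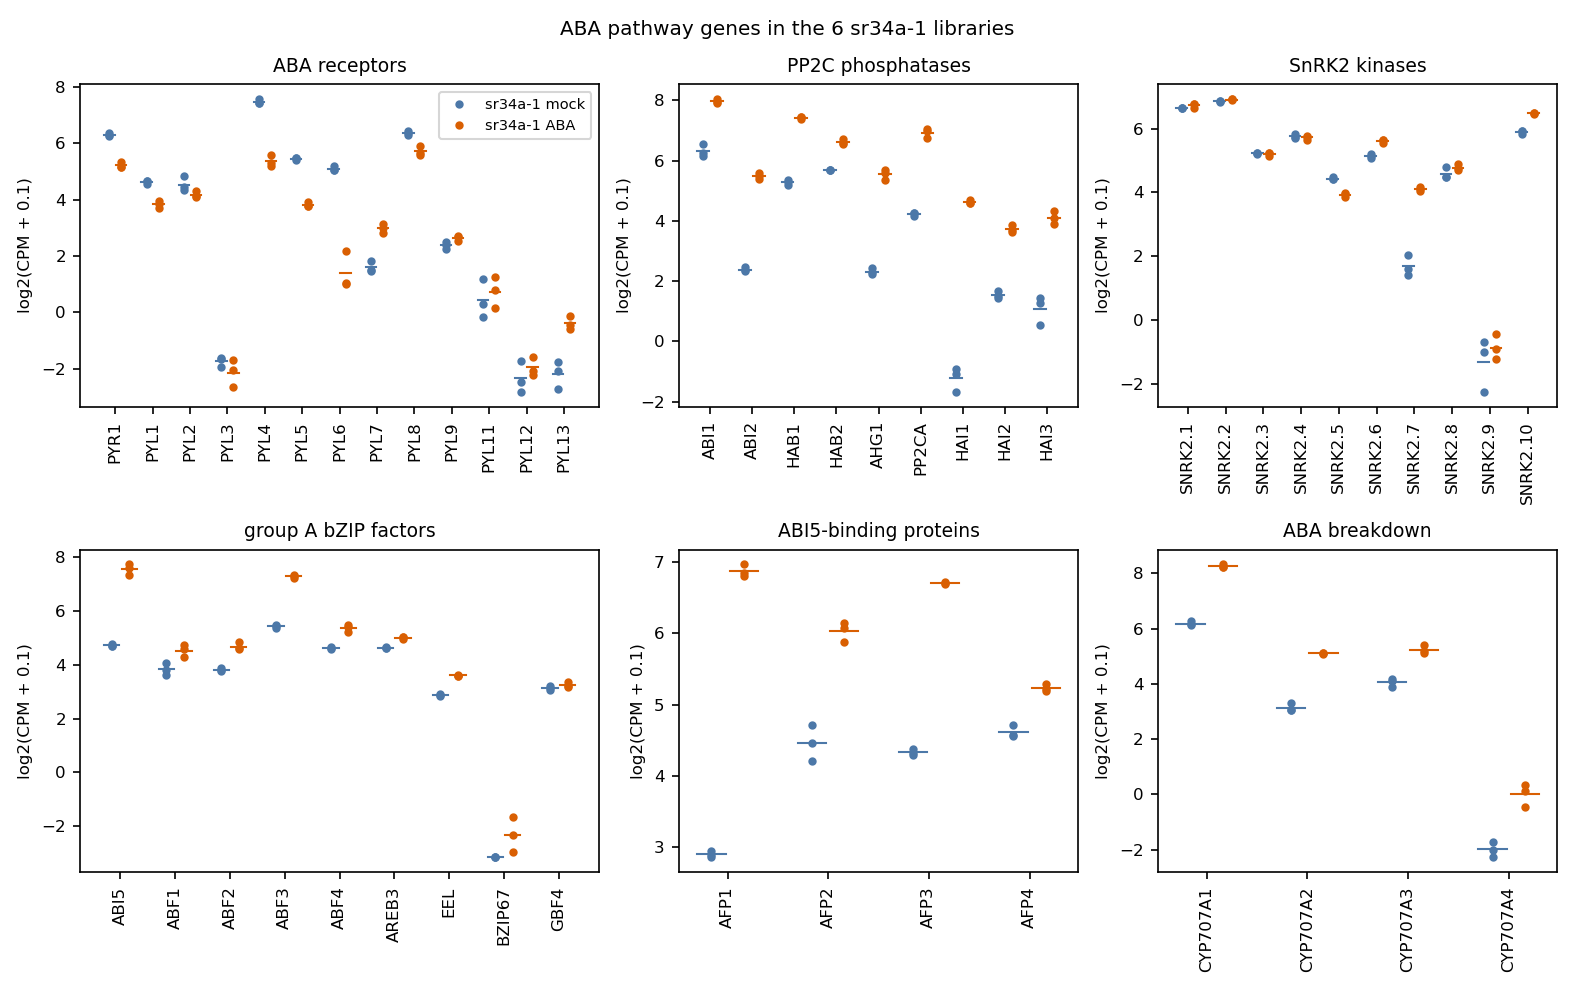
Level of each tested gene of 6 lists in the 6 sr34a-1 libraries, as log2(CPM + 0.1), with mock in blue and ABA in orange and each line the mean of 3 libraries. The 9 phosphatase genes lie higher with ABA in every library, while PYL4, PYL5 and PYL6 lie lower.

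Of 10 SnRK2 kinase genes, 3 were higher and 1 was lower (median log2 fold change 0.14), a share close to the 40.1% of all genes that changed. SNRK2.7 had 3.97, 2.92 and 2.56 CPM in mock and 17.1, 16.4 and 17.96 CPM with ABA (log2 fold change 2.44, SE 0.14, adjusted p 4.04e-09). SNRK2.6, the kinase known as OST1 in guard cells, rose by 0.47 and SNRK2.10 by 0.57, and SNRK2.5, which overlaps another gene, fell by 0.51. SNRK2.2 and SNRK2.3, which act with SNRK2.6 in seeds, had log2 fold changes of 0.05 and -0.02 and did not pass.

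The bZIP factors downstream of the kinases rose. Of 9 tested, 7 were higher and 0 were lower (median log2 fold change 0.73). ABI5, the factor that arrests the growth of germinated embryos, had 25.8, 27.1 and 26.2 CPM in mock and 193, 163 and 214 CPM with ABA, a log2 fold change of 2.85 (SE 0.09, adjusted p 8.19e-12). ABF3 rose by 1.87, from a mean of 43.0 to 157 CPM, and ABF2, ABF4, EEL, ABF1 and AREB3 rose by 0.38 (AREB3) to 0.88 (ABF2). BZIP67 and GBF4 did not pass and BZIP15 was not tested. The ABI5-binding proteins (AFP), which promote the breakdown of ABI5, rose in all 4 cases. AFP1 had 7.17, 7.32 and 7.61 CPM in mock and 112, 116 and 125 CPM with ABA (log2 fold change 3.99, SE 0.08, adjusted p 9.57e-14), AFP3 rose by 2.38, AFP2 by 1.56 and AFP4 by 0.62. ABI5 and the proteins that limit it were higher in the same 3 libraries.

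Other transcription factors of the ABA response rose in 13 of 15 cases, with 0 lower and a median log2 fold change of 1.72. HB-7, a homeobox factor, had 1.81, 2.16 and 2.23 CPM in mock and 65.2, 69.5 and 76.0 CPM with ABA (log2 fold change 5.08, SE 0.12, adjusted p 4.67e-13). MYB41, a regulator of cuticle and suberin genes, had no read in the 3 mock libraries and 59 to 81 reads with ABA. Against a floor of 3 counts over the mock group, it was at least 71.8-fold higher. MYB102 rose by 4.87 and NAC019 by 3.32, both from under 1 CPM. With MYB41 set to its bound the median of the list was again 1.72. ABI4 and MYB2 were the members that did not pass.

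Genes that make ABA and genes that destroy it were higher in the same seedlings. Of 8 synthesis genes tested, 5 were higher and 0 were lower (median log2 fold change 0.89). NCED3, which encodes a rate-limiting cleavage enzyme of ABA synthesis, had 0.586, 0.737 and 0.549 CPM in mock and 4.14, 7.63 and 10.2 CPM with ABA (log2 fold change 3.55, SE 0.34, adjusted p 8.96e-07), the 3 ABA libraries differing among themselves by more than the mock ones. ABA1, the zeaxanthin epoxidase gene, rose by 1.31, from 96.0, 100 and 103.2 CPM to 242, 249 and 250 CPM, and NCED9, AAO3 and ABA3 rose by 2.17, 1.11 and 0.36. All 4 CYP707A genes, whose enzymes hydroxylate ABA and so inactivate it, were higher. CYP707A1 had 77.2, 71.7 and 69.6 CPM in mock and 322, 304 and 299 CPM with ABA (log2 fold change 2.08, SE 0.07, adjusted p 1.04e-11), and CYP707A2 went from a mean of 8.74 to 34.5 CPM. CYP707A4 rose by 2.57 from under 1 CPM and CYP707A3 by 1.18.

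Protective seed proteins rose as a whole list. All 19 LEA, dehydrin and COR genes were higher, with log2 fold changes of 1.63 (ERD14) to 8.11 (COR15A) and a median of 3.01. Their summed level went from 846 to 993 CPM in mock to 7590 to 8701 CPM with ABA. KIN1, whose sequence is close to that of its neighbour KIN2 so that reads may be shared, had 2.29, 2.67 and 2.29 CPM in mock and 79.2, 86.8 and 87.1 CPM with ABA (log2 fold change 5.12, SE 0.09, adjusted p 1.87e-14). LEA4-5 had 97.8, 111 and 118 CPM in mock and 746, 713 and 891 CPM with ABA. EM1 and EM6, LEA genes of the maturing seed, rose by 3.11 and 3.01. Of these 19 genes, 73.7% held the ABRE core in the window, against 24.2% of all genes. The share was 49.1% of genes that rose by at least 1 and 60.1% of those that rose by at least 3. The shares of induced genes are the closer comparisons, as all 19 rose by at least 1.63, with a median of 3.01. Across the lists the share did not always follow the response. It was 66.7% of the 9 phosphatase genes, which all rose, but 62.5% of the 8 root hair markers, of which 1 was higher. Of the 18 genes of lipid breakdown and the glyoxylate cycle, 11 were higher and 22.2% held the core. These shares were not tested.

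Genes of oil body proteins, which coat the lipid stores of the seed, and of storage proteins rose. Of 13 storage and oil body genes, 10 were higher and 0 were lower (median log2 fold change 1.02). OLEO1 had 18.04, 17.6 and 21.2 CPM in mock and 97.1, 117 and 147 CPM with ABA (log2 fold change 2.67, SE 0.15, adjusted p 3.11e-09), and OLEO2, OLEO3 and OLEO4 rose by 2.45, 2.27 and 2.26 and the caleosin gene CLO1 by 1.97. OLEO1 and OLEO2 overlap another gene. Of the storage protein genes, CRA1, CRB, CRU3, SESA1 and SESA5 rose by 0.59 (CRB) to 1.26 (SESA1), and SESA2, SESA3 and SESA4, which lie in an array of similar copies with SESA1, did not pass. Markers of the endosperm were higher in 3 of 5 cases. Of the 5, MAN7 rose by 1.37, EPR1 by 0.46 and CEP1 by 1.5 at under 1 CPM, MAN2 (0.05) and MAN5 (-0.08) did not pass, and their summed level was 145 to 176 CPM in mock and 220 to 276 CPM with ABA. The part of endosperm tissue in the change of seed genes was not tested.

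Genes for using the seed's oil were higher by small steps. Of 18 genes of lipid breakdown and the glyoxylate cycle, 11 were higher and 0 were lower, with a median log2 fold change of 0.20. ACX1, an acyl-CoA oxidase of peroxisomal beta-oxidation, had 478, 453 and 439 CPM in mock and 785, 764 and 786 CPM with ABA (log2 fold change 0.77, SE 0.05, adjusted p 6.46e-09). The peroxisomal citrate synthase genes CSY3 and CSY2 rose by 0.50 and 0.41, and the transporter gene PXA1 by 0.31. ICL, which encodes isocitrate lyase, had a log2 fold change of 0.10 and did not pass.

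Genes of raffinose sugars and proline, which act as compatible solutes, were mixed. Of 11 tested, 5 were higher and 2 were lower (median log2 fold change 0.20). GOLS2, a galactinol synthase gene, had 2.23, 1.81 and 1.78 CPM in mock and 19.4, 17.9 and 24.2 CPM with ABA (log2 fold change 3.40, SE 0.15, adjusted p 1.57e-10). P5CS1, which makes the precursor of proline, rose by 2.44, from 41.9, 48.3 and 48.2 CPM to 242, 249 and 262 CPM. RS4 rose by 1.64. The genes that fell were ERD5, the proline dehydrogenase of proline breakdown, by 0.63 from a mean of 123 to 79.4 CPM, and SIP2, a raffinose-cleaving galactosidase, by 0.41. P5CDH, which acts after ERD5 in proline breakdown, rose by 0.55.

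Gibberellin acts against ABA in germination, and its genes changed about as often as all genes (40.1%). Of 17 synthesis and deactivation genes tested (of 21 listed), 5 were higher and 2 were lower (median log2 fold change 0.12). GA20OX5 rose by 1.75 and GA2OX8, which inactivates gibberellin precursors, fell by 1.597, both below 4 CPM, and GA2OX6 rose by 0.73 from a mean of 7.92 to 13.1 CPM. GA20OX2 fell by 0.26, a call lost when any 1 of 4 libraries was left out. GA3OX1 and GA3OX2, which make active gibberellin, had log2 fold changes of -0.04 and 0.15 and did not pass. Of 9 receptors and DELLA repressors, 4 were higher and 0 were lower. RGL3 had 19.2, 19.5 and 19.0 CPM in mock and 44.6, 40.3 and 52.5 CPM with ABA (log2 fold change 1.25, SE 0.08, adjusted p 9.98e-09). RGL2, the DELLA repressor of germination, rose by 0.83, and the receptors GID1C and GID1B by 0.36 and 0.22.

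**Figure D3:**
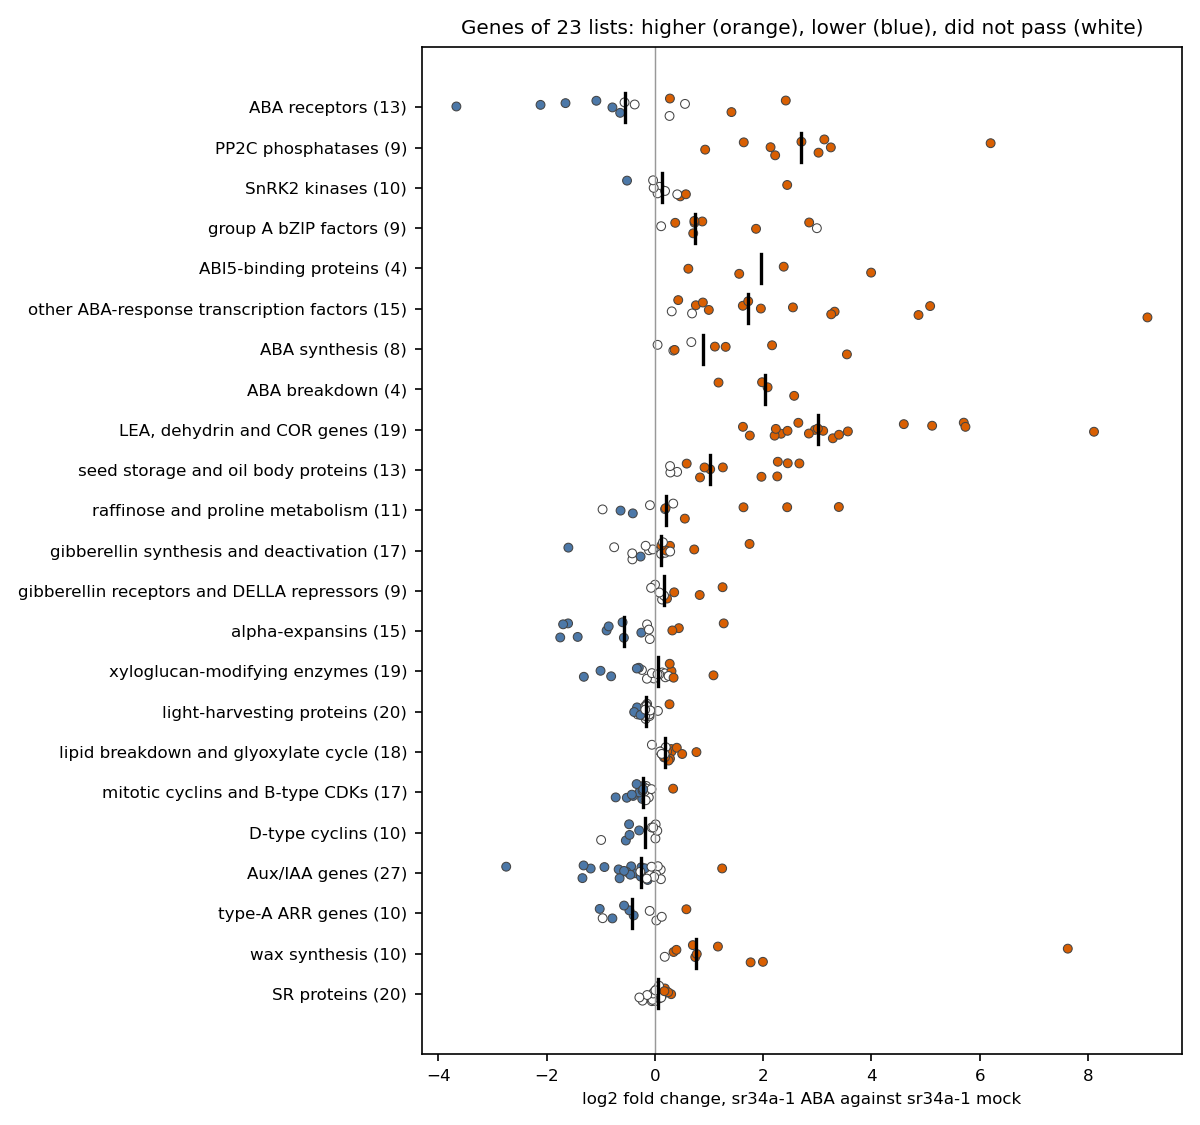
Log2 fold change of every tested gene of 23 lists in sr34a-1, 1 point a gene, with the number tested in brackets and the median as a black line. Orange genes were higher, blue lower, and white did not pass the test. MYB41 (9.10) and WSD1 (7.63) are fitted values of genes with no mock read, which are no bound. LEA genes (median 3.01) and phosphatases (median 2.71) lie to the right, and receptors, expansins, Aux/IAA and type-A ARR genes have medians below 0.

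Wall-loosening genes fell unevenly. Of 15 alpha-expansin genes, whose proteins let cell walls extend, 9 were lower and 3 were higher (median log2 fold change -0.57). EXPA1 had 218, 176 and 162 CPM in mock and 65.1, 55.4 and 63.1 CPM with ABA (log2 fold change -1.602, SE 0.12, adjusted p 5.27e-08), and EXPA8, EXPA5 and EXPA14 fell by 1.75, 1.69 and 1.43. EXPA4, EXPA16 and EXPA20 rose by 0.44, 1.27 and 0.32, the last with a call that 3 single libraries decided. The summed level of the family was 1037 to 1177 CPM in mock and 740 to 787 CPM with ABA. Xyloglucan-modifying XTH genes were split, 5 lower and 4 higher of 19 (median log2 fold change 0.05). XTH31 fell from 345, 330 and 334 CPM to 199, 190 and 188 CPM (log2 fold change -0.81, SE 0.04, adjusted p 1.34e-09), and XTH20 fell by 1.31 from under 7 CPM. XTH25 rose by 1.08 and XTH33 fell by 1.003, both under 3 CPM, and XTH24, XTH16 and XTH22 rose by 0.35, 0.31 and 0.27. The calls of XTH25, XTH33 and XTH22 were lost without single libraries.

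Auxin and cytokinin response genes were more often lower. Of 27 Aux/IAA genes tested, which encode early auxin-induced repressors, 16 were lower and 1 was higher (median log2 fold change -0.26). The largest decreases were in weakly expressed members: IAA34 went from 1.88, 1.56 and 1.53 CPM to 0.206, 0.290 and 0.235 CPM (log2 fold change -2.75, SE 0.24, adjusted p 2.85e-07; it overlaps AT1G15060), and IAA33 and IAA32 fell by 1.34 and 1.32, the call of IAA33 being lost when any 1 of 3 libraries was left out. IAA30, the exception, rose by 1.24. Of 10 type-A ARR genes, which are induced by cytokinin and dampen its signal, 5 were lower and 1 was higher. ARR7 went from 4.38, 5.15 and 6.06 CPM to 3.04, 3.30 and 2.7 CPM (log2 fold change -0.78, SE 0.15, adjusted p 0.000635), ARR15 fell by 1.02 and ARR6 by 0.57, and ARR16 rose by 0.58, a call lost when any 1 of 4 libraries was left out.

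Several cell cycle genes were lower. Of 17 mitotic cyclin and B-type CDK genes, 10 were lower and 1 was higher (median log2 fold change -0.22). The largest fall was that of CYCA2;1, by 0.72 from a mean of 1.71 to 1.03 CPM (adjusted p 0.0422, edgeR), a call lost when any 1 of 5 libraries was left out. CYCA1;1 had 14.8, 19.8 and 18.7 CPM in mock and 11.8, 14.1 and 11.3 CPM with ABA (log2 fold change -0.52, SE 0.10, adjusted p 0.000715), and CDKB1;2 and CYCA2;4 fell by 0.42 and 0.40. CYCB2;3 rose by 0.34. Of 10 D-type cyclins, which act at entry into the cycle, CYCD5;1, CYCD3;3, CYCD6;1 and CYCD3;1 were lower, by 0.54, 0.48, 0.47 and 0.29, and 0 were higher. In the stomatal lineage markers SPCH, EPF2 and MYB60 fell by 0.51, 1.06 and 1.01 and the other 5 of 8 did not pass.

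Genes of wax, which seals the plant surface, rose. Of 10 genes of wax synthesis, 9 were higher and 0 were lower (median log2 fold change 0.76). CER1, which makes alkanes, had 108, 98.1 and 91.6 CPM in mock and 365, 330 and 320 CPM with ABA (log2 fold change 1.77, SE 0.07, adjusted p 1.07e-10), and CER6 rose by 1.17. MAH1, which encodes an alkane hydroxylase, rose by 2.00 from under 1 CPM, a call lost without the third ABA library. WSD1, the wax ester synthase gene, had no read in mock and 19 to 32 reads with ABA, at least 25.7-fold higher against a floor of 3 counts over the mock group. Of 20 light-harvesting genes, LHCB3, CAB3 and LHCB5 were lower by 0.38, 0.33 and 0.27 and LHCA6 was higher by 0.27. All 4 of these calls were lost when some single libraries were left out, and the LHCB3 libraries were spread from 487 to 617 CPM in mock and from 397 to 480 CPM with ABA.

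SR protein genes, the family of the mutated gene, changed by at most 0.30 among those that passed. Of 20 tested, which include the SR-like factors SR45 and SR45A and the mutated SR34A, 4 were higher and 0 were lower (median log2 fold change 0.05). RS40 had 54.1, 57.1 and 57.4 CPM in mock and 67.0, 68.6 and 72.2 CPM with ABA (log2 fold change 0.30, SE 0.04, adjusted p 3.27e-05), RSZ21 rose by 0.25, SR34B by 0.19 and RS2Z33 by 0.18. The call of SR34B was lost in several alternatives. SR34A itself had a log2 fold change of -0.06 (SE 0.07, adjusted p 0.554).

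To ask whether the response of sr34a-1 differed from that of WT, the difference of the 2 ABA responses was tested as an interaction in the same fit. In WT, 35.1% of genes changed with ABA, 18.2% higher and 17.0% lower, and changes of at least 1 were seen in 6.68% (3.77% upward and 2.91% downward). Of the genes that changed in sr34a-1, 71.7% also changed in WT, and 81.9% of those that changed in WT also changed in sr34a-1, all 6108 shared genes in the same direction. Another 2406 genes passed in sr34a-1 and not in WT, and 2224 of these had the same sign in WT. The interaction passed for 0 genes in edgeR (0.0%), with 1374 at an unadjusted p under 0.05 (6.46%), while DESeq2 called 38 and edgeR with the replicate number as a block called 74.

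The listed gene closest to the threshold was KIN1, whose interaction had an adjusted p of 0.0501 in edgeR. In WT it went from 0.876 ± 0.205 CPM in mock to 65.2 ± 3.83 CPM with ABA, and in sr34a-1 from 2.42 ± 0.222 to 84.4 ± 4.45 CPM (SD, n = 3 each), so the log2 response was lower by 1.09 (SE 0.15) in sr34a-1, where both levels were higher. The listed genes that followed in order of p, chosen after their values were seen, were HAI2, ABA1, KIN2, EEL, XTH9, IAA34 and PYL7. HAI2 responded by 2.22 in sr34a-1 and 3.06 in WT on the log2 scale (edgeR interaction, adjusted p 0.116), and ABA1 by 1.31 and 1.05 (adjusted p 0.300). IAA34 responded by -2.75 and -1.59 (adjusted p 0.567) and PYL7 by 1.42 and 0.68 (adjusted p 0.576), both in edgeR. Mitotic cyclin and CDK genes were lower in 10 cases in sr34a-1 and in 4 in WT, with median log2 fold changes of -0.22 and -0.12, and the lowest adjusted p of the interaction among them was 0.633. None of these differences passed the test after adjustment.

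**Figure D4:**
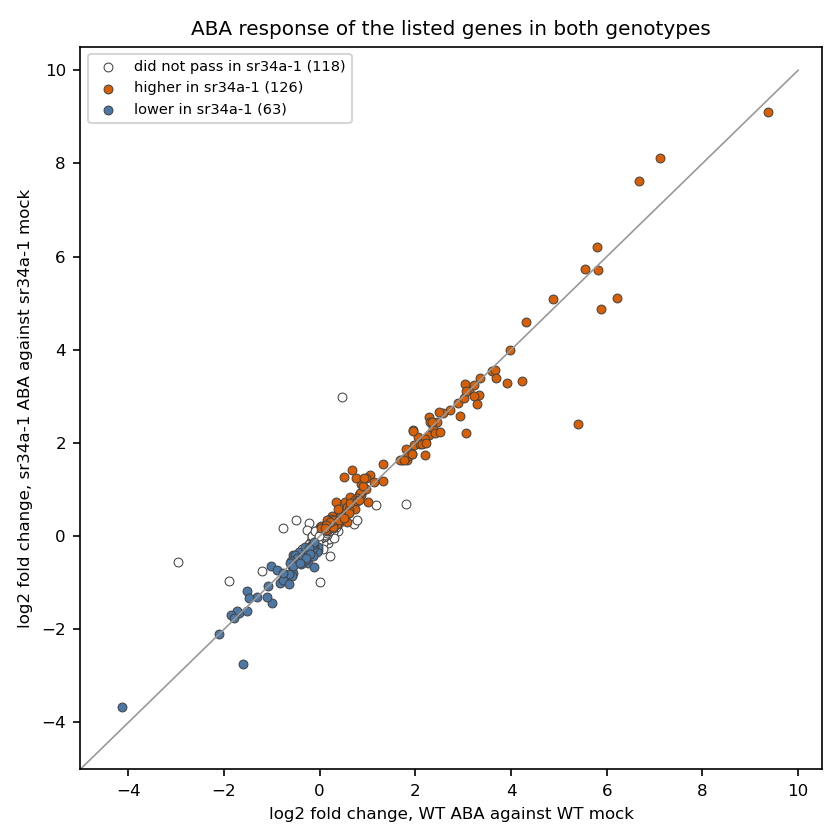
Log2 fold change with ABA in sr34a-1 against that in WT for the 307 tested genes of the 23 lists, with the line of equal response. Of these, 126 were higher (orange) and 63 lower (blue) in sr34a-1. KIN1 lies below the line at 5.12 against 6.21, and points with few reads scatter most.

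Few splicing events passed the test for a change with ABA. Percent spliced in (PSI) is the share of reads that include an exon or intron, and 28000 events in 9973 genes had enough reads and a mean PSI between 2 and 98. Of these, 8 changed with ABA in sr34a-1 (0.0286%) at an adjusted p under 0.05 (limma), 4 to higher and 4 to lower PSI (0.0143% each), in 6 introns and 2 exons. Without adjustment 1733 events (6.19%) had p under 0.05. By type, 13.1% of 1115 exons, 4.99% of 16719 introns, 7.35% of 7048 acceptor sites and 7.54% of 3118 donor sites had an unadjusted p under 0.05, and 0.179%, 0.0359%, 0.0% and 0.0% passed after adjustment. A rule without a p-value, under which the means differed by 15 PSI or more and the groups were separated by 5 or more, picked 79 events (0.282%), 43 higher (0.154%) and 36 lower (0.129%). By type these were 0.269% of exons, 0.191% of introns, 0.383% of acceptor sites and 0.545% of donor sites. PSI did not overlap between the groups in 11.1% of events, and in WT 5 events passed (0.0179%). With the variance modelled on total reads, as first planned, limma called 0 events, so the 8 calls rest on the variance model chosen after that count was seen, and leaving out single libraries gave 3 to 10.

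The most significant change was a lower retention of an intron in GGH1, which encodes a gamma-glutamyl hydrolase of folate metabolism. PSI of this 110-base intron was 63.46, 60.56 and 59.91 in mock and 46.76, 42.67 and 42.19 with ABA, a mean difference of -17.4 (adjusted p 4.74e-05, limma). The groups did not overlap, which the rule for naming events required. WT moved by -15.0, and the gene's expression fell by 0.53 on the log2 scale. The intron is at chr1:29585956-29586065 on the plus strand, between coding bases, and 1 of 3 RefSeq transcripts retains it. It is printed with 20 bases of flanking exon, in capitals, and the intron in lower case (chr1:29585936-29586085, TAIR10.1).
GGH1: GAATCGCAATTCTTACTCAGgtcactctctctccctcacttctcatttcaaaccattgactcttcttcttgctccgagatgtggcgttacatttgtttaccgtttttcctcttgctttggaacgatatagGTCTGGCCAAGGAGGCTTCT

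Retention rose in 3 introns. An intron of ALDH7B4, a stress-induced aldehyde dehydrogenase gene, had a PSI of 37.52, 33.53 and 36.94 in mock and 60.63, 54.46 and 54.18 with ABA, a mean difference of 20.4 (adjusted p 0.000203, limma), with 20.1 in WT. Its 106 bases (chr1:20198856-20198961, minus strand) lie upstream of the coding sequence. An intron of ERD15, an early dehydration gene known to dampen ABA responses, also upstream of the coding sequence (chr2:17269491-17269719, plus strand, 229 bases), had a PSI of 65.37, 74.43 and 72.90 in mock and 96.35, 92.83 and 88.98 with ABA, a mean difference of 21.8 (adjusted p 0.00228, limma). Of 5 RefSeq transcripts of ERD15, 1 splices this intron out, 1 holds it within an exon and the rest do neither. In expression, ALDH7B4 rose by 1.13 and ERD15 by 0.59 on the log2 scale. An intron of AT3G27770 before its coding sequence (chr3:10287582-10287667, minus strand) rose from a mean PSI of 1.26 to 5.17, and that call was lost with any 1 of the 6 libraries left out.

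Retention fell in 2 more introns. AGL16, a MADS-box factor gene, had a PSI of 25.01, 26.50 and 27.77 in mock and 9.67, 5.72 and 4.15 with ABA for an intron of 1203 bases (chr3:21177892-21179094, plus strand), a mean difference of -19.9 (adjusted p 0.0134, limma). An intron of the amino acid transporter gene AT1G25530 (chr1:8965886-8966535, minus strand, 650 bases) had a PSI of 12.46, 17.60 and 21.28 in mock and 4.95, 5.28 and 3.39 with ABA. Both lie between coding bases, and the calls were lost when any 1 of 4 (AGL16) or 3 (AT1G25530) libraries was left out. WT moved the same way, by -13.1 in AGL16 and -9.46 in AT1G25530. The donor sites of the 6 introns are printed as the last 3 exon bases in capitals and the first 6 intron bases, to show that all begin with GT and that GGH1 and AT1G25530 share the 6 intron bases.
GGH1 donor: CAGgtcact
ALDH7B4 donor: TAGgtgatt
ERD15 donor: ATGgtatta
AT3G27770 donor: AACgtaagt
AGL16 donor: CAGgtacct
AT1G25530 donor: CTGgtcact

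Of the 2 exons, that of AT3G53270 (chr3:19752428-19752528, minus strand, upstream of the coding sequence) was included more with ABA, at 88.14, 91.24 and 83.21 PSI in mock and 94.35, 99.11 and 99.09 with ABA, and WT moved by 10.02 as well. That call was lost with 5 of the 6 libraries left out in turn. The exon of AT1G13820 (chr1:4736214-4736311, plus strand) was included less, at 99.11, 99.75 and 99.34 PSI in mock and 90.96, 98.17 and 96.86 with ABA (adjusted p 0.0191, limma). The first ABA library of the latter lay furthest from the mock group, and the call was lost without the second or the third mock library. WT moved by -0.33, from a mean PSI of 97.67 in mock to 97.33 with ABA, against 99.4 and 95.33 in sr34a-1. The WT libraries spanned 96.46 to 98.36 PSI, which held the sr34a-1 ABA values of 98.17 and 96.86 but not 90.96. All sr34a-1 mock values lay above that span, so the mock level of the mutant also entered the difference between the genotypes. The interaction had an unadjusted p of 0.000975 and an adjusted p of 0.979 in limma. The 98 bases of the exon are not a multiple of 3, so that skipping shifts the reading frame. The exon is printed in capitals with 20 bases of intron on each side (chr1:4736194-4736331, TAIR10.1), and the only RefSeq transcript includes it.
AT1G13820: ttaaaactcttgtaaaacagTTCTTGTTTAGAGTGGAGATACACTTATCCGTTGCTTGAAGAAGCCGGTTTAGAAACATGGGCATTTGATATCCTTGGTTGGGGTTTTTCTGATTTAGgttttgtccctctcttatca

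**Figure D5:**
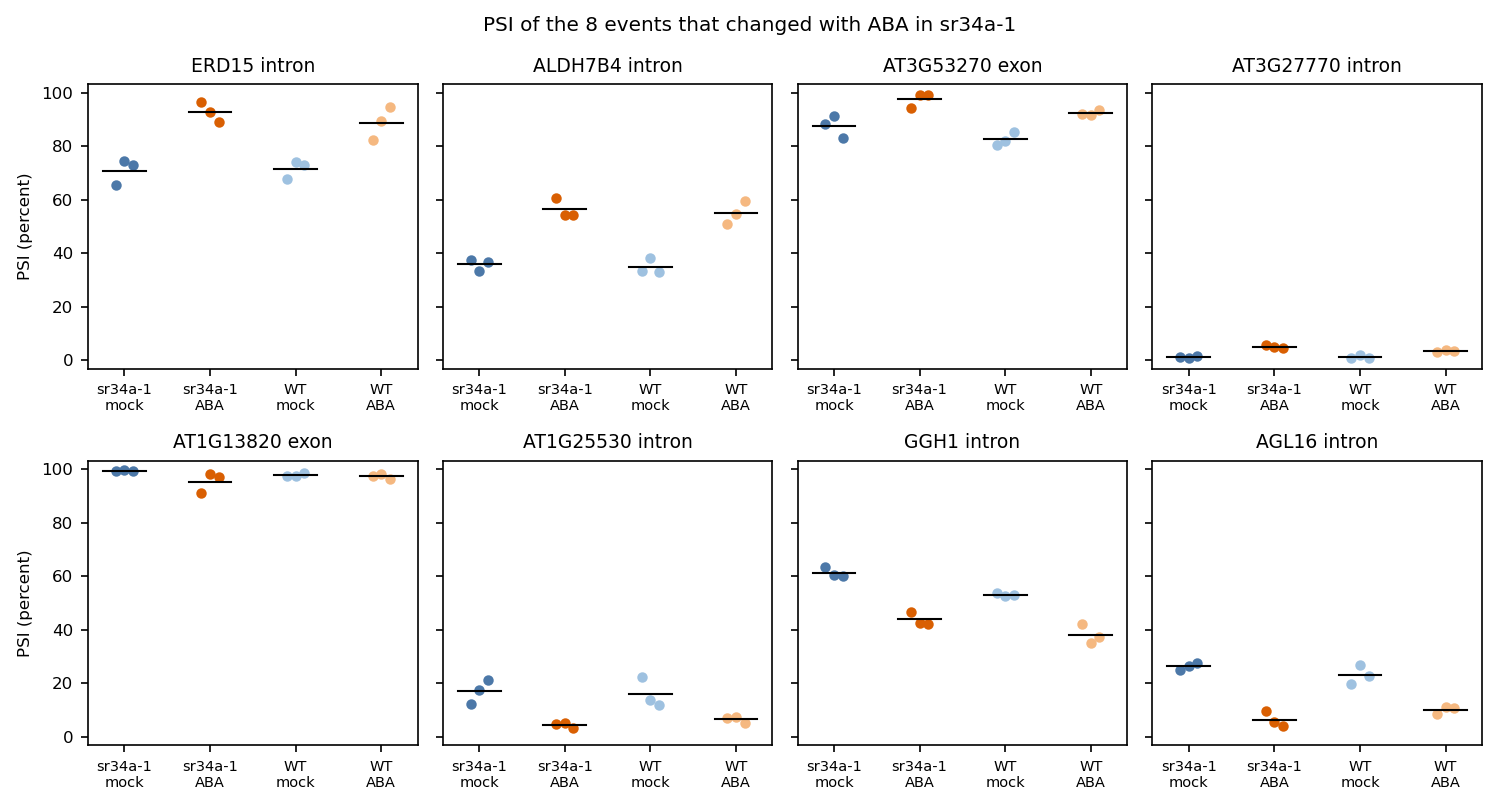
PSI in percent of the 8 events that changed with ABA in sr34a-1, 1 point a library and a line at the mean of 3. The introns of ERD15 and ALDH7B4 rose by 21.8 and 20.4 PSI and those of GGH1 and AGL16 fell by 17.4 and 19.9, and WT libraries are shown beside them in pale colours.

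Splicing events were also counted in 5 of the lists. For SR proteins, 63 events in 18 genes were tested and 0 passed (limma, smallest adjusted p 0.747, 1 at an unadjusted p under 0.05). Their median absolute PSI difference was 1.19, against 1.48 over all events, and their largest was 12.5. For receptors, phosphatases, SnRK2 kinases and group A bZIP factors, 4, 10, 15 and 22 events were tested and 0 passed in limma, with 0, 0, 0 and 2 at an unadjusted p under 0.05. The event with the lowest p among these was an intron of ABF4 (chr3:6687237-6687885), whose PSI was 12.80, 19.53 and 17.92 in mock and 27.83, 28.47 and 40.39 with ABA. Its groups did not overlap and its adjusted p was 0.359 in limma. It moved by 15.5 PSI in sr34a-1 and 10.2 PSI in WT, and it is 1 of the 79 events picked by the rule without a p-value. The interaction passed for 0 of 28000 events in limma (0.0%), with 1327 at an unadjusted p under 0.05 (4.74%) and a smallest adjusted p of 0.692.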

How the data were processed

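The sample titles gave each library its group and number. Per the file headers, the deposited gene table holds whole-number read counts, not normalized, and cRPKM, which is RPKM scaled to gene length and depth by the authors. The deposited splicing table gives PSI in percent, with a quality field of read numbers beside each value, in the layout of vast-tools per the file headers. The aligner, counting tool and strand use are not given in the sources used here. Positions of events are as deposited (TAIR10), and genes are from RefSeq TAIR10.1, in which 99.75% of 16703 tested introns had GT or GC and AG ends.

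Counts were tested with edgeR 4.0.16 (quasi-likelihood, R 4.3.3) over all 12 libraries, with a mean for each of the 4 groups, TMM factors and filterByExpr. CPM use the same factors. For splicing, limma 3.58.1 was fitted to log2 of inclusion over exclusion reads, with 0.5 added to both, in events with at least 10 reads in each library. Its variance trend was first planned on total reads, which called 0 events. After that count was seen, the trend on sampling variance was taken in its place, because in simulated data it recovered more of the shifts put in. It also made more false calls, 10 of 28000 events against 5 with the planned trend. The simulated spread followed read numbers and PSI, as the chosen trend assumes, so the simulation cannot tell which trend fits the real spread. As it held many true shifts, it does not give the number of false calls among the 8 events called here. The gene test was checked on simulated counts too. DESeq2 1.42.0 was an alternative. P-values measure the spread between these libraries, and floors of 3 counts cover counting error only.

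The members and the lists (346 symbols in 27 lists, 1 without a locus) were chosen with earlier results of these data known. Named were the 10 genes with the largest change in each direction (adjusted p under 0.05, mean log2 CPM of at least 1, no overlap of the groups), the 8 with the highest cRPKM in each direction among changes of at least 1, the 4 members of each list with the largest change and any against its majority, and the 5 events with the largest change in each direction. Members outside the rule are named to account for a list. The number of value columns that matched no sample was 0.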

Additional observations from a re-analysis of the deposited data

How the results depend on the processing

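The count of genes that changed in sr34a-1 was within 1.5 times under every alternative run: 8510 with DESeq2 size factors, 8824 with DESeq2, 8297 without a filter, 8208 with a filter of 1 CPM, 8228 on the 6 sr34a-1 libraries, 8656 and 8651 with limma on log2(cRPKM + 1) and log2(cRPKM + 0.1), and 7182 to 7736 without single libraries, with 5952 genes (69.9%) called in each of those 6 fits. With limma on cRPKM, 38.8% of the calls were higher, against 48.4%, and at + 1 the changes of at least 1 numbered 750, against 1562. Same-numbered sr34a-1 libraries did not all deviate together (r 0.23, 0.143 and -0.0229 across genes), and those of unlike number had r of -0.279 to 0.22. The numbers were not taken to pair the samples, although these values do not exclude a pairing. A fit with replicate number as block called 9914 genes, 9 events, and 74 genes by the interaction. The interaction gave 38 genes with DESeq2, 5 without a filter, and 0 to 4 without single libraries (4 without WT mock replicate 1, 1 without WT mock replicate 3 and 1 without WT ABA replicate 1). Of 2034 refitted values of the 136 named genes, 0 reversed and 69, in 15 genes, lost the call. The splicing count of 8 became 6668 without the PSI filter, of which 6281 had no inclusion or no exclusion reads in all 6 libraries, 79 by the rule without a test, 0 with the planned trend on total reads, which was replaced after seeing that count, and 3 to 10 without single libraries (4 and 3 without mock replicates 2 and 3). All 8 events lost the call with the trend on total reads, and those of GGH1, ALDH7B4 and ERD15 kept it in every other fit. The causes were not tested. With 3 libraries a group, events of low read number carry the widest error.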
